A study of Mus musculus with 17 samples.

Results

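Vascular-type genes of blood stem cells are genes known from the endothelium, the lining of blood vessels, that blood stem cells also transcribe. The 10 genes Robo4, Tek, Tie1, Procr, Emcn, Cdh5, Pecam1, Kdr, Eng and Myct1 were followed here through every array probe that carried their names, 14 probes among the 41174 non-control probes, or 10 of the 28090 gene names on the array. The list was drawn up with earlier results on these cell populations known. The difference between stem and myeloid populations is therefore given as a description with no test, and tests were kept to comparisons within each of the 2 compartments.

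The study sorted 6 populations from the bone marrow of young adult female C57Bl/6 mice, with marrow of several mice pooled for each replicate sample, and read their mRNA on 17 single-color Agilent arrays. Marrow was depleted of cells that carry B220, CD3, GR-1 or Ter119 and enriched for c-kit before sorting. The HSC subsets came from a sort of Sca-1+ cells: LT-HSC (CD34- FLT3-, 2 arrays), ST-HSC (CD34+ FLT3-, 3 arrays) and MPP (CD34+ FLT3+, 3 arrays). The myeloid populations came from another sort, of Sca-1- cells: CMP (intermediate for CD34 and FcRγ, 3 arrays), GMP (CD34+ FcRγ+, 3 arrays) and MEP (CD34- FcRγ-, 3 arrays). The sources used here name no engineered allele and no agent given to these mice. Each array read the RNA of a sorted bulk population, in which fewer cells of a type and less RNA per cell cannot be told apart.

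Blood stem cells and endothelium arise from a shared embryonic source, the hemogenic endothelium, and keep parts of a common receptor and adhesion repertoire. Tek (Tie2) is the receptor tyrosine kinase for angiopoietins, and Tie1 is its orphan partner. Kdr is the main signalling receptor for VEGF-A, Robo4 is a guidance-type receptor of vessels, Eng (endoglin) is a co-receptor for BMP9 and other TGF-β family ligands, and Procr is the endothelial protein C receptor, used as a surface mark of stem cells. Cdh5 (VE-cadherin) and Pecam1 (CD31) hold endothelial cells together, Emcn (endomucin) is a surface sialomucin of veins and capillaries, and Myct1 is a small membrane protein of endothelium.

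Of the 10 genes, Robo4, Procr, Emcn and Myct1 had all 8 arrays of HSC subsets above all 9 myeloid arrays. Their promoters are shown because these genes share the split between compartments and the regions upstream of their starts can be read side by side. The sequences are from RefSeq on build GRCm38.p6, run from 250 bases before to 50 bases after the annotated start, are written 5′ to 3′ on the strand of the gene, and lie on the plus strand in all 4 cases: Robo4 at chr9:37401722-37402021, Procr at chr2:155750967-155751266, Emcn at chr3:137340828-137341127 and Myct1 at chr10:5593478-5593777. Capitals mark AGGAAG or its reverse complement CTTCCT, letters that hold the core bound by ETS factors, a family that acts in both endothelium and blood.
Robo4: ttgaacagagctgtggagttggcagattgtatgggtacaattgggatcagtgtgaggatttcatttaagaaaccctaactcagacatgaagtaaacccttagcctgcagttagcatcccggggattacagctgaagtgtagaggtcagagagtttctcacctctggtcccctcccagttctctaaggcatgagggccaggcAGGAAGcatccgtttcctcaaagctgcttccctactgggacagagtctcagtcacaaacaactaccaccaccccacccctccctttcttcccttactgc
Procr: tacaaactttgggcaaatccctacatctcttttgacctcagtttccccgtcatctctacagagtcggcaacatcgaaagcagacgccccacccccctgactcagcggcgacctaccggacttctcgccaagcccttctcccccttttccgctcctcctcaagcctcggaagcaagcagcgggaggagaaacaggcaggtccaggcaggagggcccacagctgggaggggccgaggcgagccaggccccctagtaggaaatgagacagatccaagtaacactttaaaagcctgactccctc
Emcn: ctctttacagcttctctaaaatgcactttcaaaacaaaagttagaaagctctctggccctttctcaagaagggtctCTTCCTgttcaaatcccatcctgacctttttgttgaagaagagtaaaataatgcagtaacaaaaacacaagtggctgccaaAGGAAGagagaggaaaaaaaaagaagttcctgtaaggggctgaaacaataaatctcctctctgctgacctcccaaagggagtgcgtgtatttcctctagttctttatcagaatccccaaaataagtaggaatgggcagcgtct
Myct1: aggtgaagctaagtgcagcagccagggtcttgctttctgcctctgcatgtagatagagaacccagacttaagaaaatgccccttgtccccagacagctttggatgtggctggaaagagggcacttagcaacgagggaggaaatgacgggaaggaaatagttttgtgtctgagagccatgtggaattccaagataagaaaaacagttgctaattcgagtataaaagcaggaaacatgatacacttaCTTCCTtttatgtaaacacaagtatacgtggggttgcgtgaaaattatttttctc

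The table held promoters for 8 of the 10 genes, and Cdh5 and Pecam1 were not among them. AGGAAG on either strand was found in 5 of the 8 promoters (Robo4, Tie1, Eng, Emcn and Myct1) and in 35.4% of the 32851 promoters of the same length in the table. Counted from the start of transcription, the match began at -49 in Robo4, at -5 in Myct1, and at -174 and -93 in Emcn. AGATAA, which GATA factors bind, was found in Tek and Myct1 and in 11.2% of all promoters. CANNTG, the E-box, was found in all 8 and in 72.3% of all promoters, and TATAAA, the TATA box, was found in Myct1 and in 13.6% of all promoters. Both strands were searched for each of these strings, and no match overlapped another. Procr differed from the other 3 in holding no AGGAAG. Base composition also differed, with 50.3% G and C in Robo4, 58.3% in Procr, 41.0% in Emcn and 43.3% in Myct1, against a median of 52.7% over all promoters. A match of letters is a description of the window and not a site in use.

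The values below are log2 spot intensities, quantile normalized across the arrays. A difference of 1 stands for a doubling. A spot was well above background where the scanner software marked it so against its local background. Levels of different probes are not comparable, since each probe binds its target with its own strength. On the arrays, 41.4% to 70.1% of non-control spots were well above background. The LT-HSC array with no replicate label was the dimmest: the 75th percentile of its intensities was 53.1, and those of the other 16 arrays lay between 243 and 534. In the listings, arrays with a replicate number come first and the array with no number last. For LT-HSC the array labelled as a pool comes first. The labels of the 6 populations were checked against marker genes. Gata1, Klf1, Epor and Tfrc summed to 29678 to 32257 in MEP and to at most 9178 elsewhere. The highest of the others was LT-HSC (4922 to 9178), above CMP (3457 to 6152) in part. In LT-HSC all 4 genes were higher than in MPP at a limma adjusted p under 0.05 (background over gene names 7.87%). Mpo, Ela2, Prtn3 and Csf1r summed to 456170 to 542594 in GMP, a range that met that of CMP (214840 to 458274). ST-HSC lay near CMP for these genes, at 262487 to 443097. Hlf, Slamf1, Mllt3 and Fgd5 summed to 7079 to 12171 over the HSC subsets and to at most 4959 in the myeloid populations. By gene, the means of Hlf and Fgd5 followed this split and those of Mllt3 and Slamf1 did not. The mean of Mllt3 was 11.53 in MEP against 10.92 in ST-HSC and 10.75 in MPP. That of Slamf1 was 5.72 in CMP against 1.97 in MPP. No list of markers for LT-HSC, ST-HSC or MPP alone was used. The mRNA of the gated surface proteins went against the gates in places: the mean of Ly6a (Sca-1) was 9.71 in GMP and 8.88 in ST-HSC and that of Cd34 was 14.96 in LT-HSC and 14.29 in GMP.

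Robo4 had the largest separation of the compartments. Its probe, at chr9:37221537-37221596 of build mm9, read 12.36 and 13.10 in LT-HSC, 12.08, 11.67 and 12.11 in ST-HSC, 12.38, 12.34 and 12.30 in MPP, 9.08, 8.67 and 9.01 in CMP, 6.17, 5.95 and 4.93 in GMP, and 5.65, 6.06 and 6.12 in MEP. All 8 arrays of HSC subsets lay above all 9 myeloid arrays, CMP lay between them and the other myeloid populations, and all 17 arrays were well above background. The mean over the 3 HSC subsets exceeded the mean over the 3 myeloid populations by 5.49, a 45.0-fold difference. Its promoter holds 1 AGGAAG.

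Procr, whose product binds activated protein C and marks stem cells, had the next largest separation. Its probe, at chr2:155580945-155581004 of mm9, read 11.95 and 11.29 in LT-HSC, 10.61, 10.78 and 11.44 in ST-HSC, 11.23, 11.57 and 11.17 in MPP, 6.59, 6.82 and 7.55 in CMP, 6.02, 6.39 and 6.82 in GMP, and 4.88, 4.83 and 5.05 in MEP. The HSC subsets stood 5.19 above the myeloid populations (36.6-fold), and the gap between the lowest array of HSC subsets and the highest CMP array was 3.06, the widest among the members. In MEP the probe was well above background on 1 of 3 arrays.

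Emcn was graded within the myeloid populations as well. Its probe, at chr3:137093811-137093870, read 10.92 and 10.22 in LT-HSC, 10.51, 10.64 and 10.85 in ST-HSC, 11.15, 11.25 and 11.33 in MPP, 8.20, 8.10 and 8.60 in CMP, 6.15, 6.28 and 6.14 in GMP, and 4.16, 4.74 and 5.16 in MEP, of which 1 MEP array was well above background. The ranges of CMP, GMP and MEP did not overlap, and the HSC subsets stood 4.44 above the myeloid populations (21.6-fold).

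Myct1 had the same order among the myeloid populations. Its probe, at chr10:4741662-4741721 on the minus strand of mm9 as the file gives it, whereas the promoter above is on the plus strand of GRCm38.p6, read 11.11 and 11.70 in LT-HSC, 11.51, 11.01 and 11.50 in ST-HSC, 11.22, 10.54 and 10.94 in MPP, 9.08, 9.10 and 9.44 in CMP, 7.33, 7.14 and 7.12 in GMP, and 4.81, 5.42 and 5.82 in MEP. The 3 HSC subsets overlapped in their arrays, whereas CMP, GMP and MEP were apart from them and from one another. The difference between compartments was 3.97 (15.6-fold). With normexp background correction the differences between compartments were smaller, at 4.31 for Robo4, 3.75 for Procr, 3.12 for Emcn and 3.01 for Myct1.

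These 4 probes of the 14 were higher on all arrays of HSC subsets than on all myeloid arrays, and 2.53% of the 41015 probes with a value on every array were so. The members were chosen with this pattern known, so the count is a description. Scanning run moved with the compartments: the arrays fell into 3 runs by scan time in their headers, 1 run held 6 myeloid arrays only, another held 6 arrays of HSC subsets only, and the remaining run held both compartments on 5 arrays. Within that run, 12.6% of probes had every array of HSC subsets above every myeloid array. The difference there was 5.52 for Robo4, 4.83 for Procr, 4.45 for Emcn and 3.77 for Myct1, and none of the 4 overlapped. Mature neutrophil transcripts (Ltf, Ngp, Camp, S100a8 and S100a9) moved with the compartments in part, with all 5 genes well above background on every array. Their summed intensity ranged from 354241 to 561869 in LT-HSC, 267919 to 564425 in ST-HSC and 74925 to 289210 in MPP, against 38281 to 228932 over the CMP and GMP arrays and 86515 to 173693 in MEP. The summed intensity of 5 mature erythroid genes was 7324 to 23804 over the HSC subsets, 486 to 4650 over CMP and GMP and 18247 to 58671 in MEP. That of 4 T cell genes was 619 to 1998 over the HSC subsets and 118 to 711 over the myeloid arrays. That of 5 B cell genes was 4790 to 7588 in LT-HSC, 2488 to 3719 over ST-HSC and MPP, 2614 to 3979 over CMP and GMP and 401 to 585 in MEP. Among these 5, Ms4a1 was picked out after its values were seen: it passed the background mark on 8 of 8 arrays from HSC subsets and on 0 of 9 myeloid arrays. The part of these transcripts in the result was not tested.

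**Figure D1:**
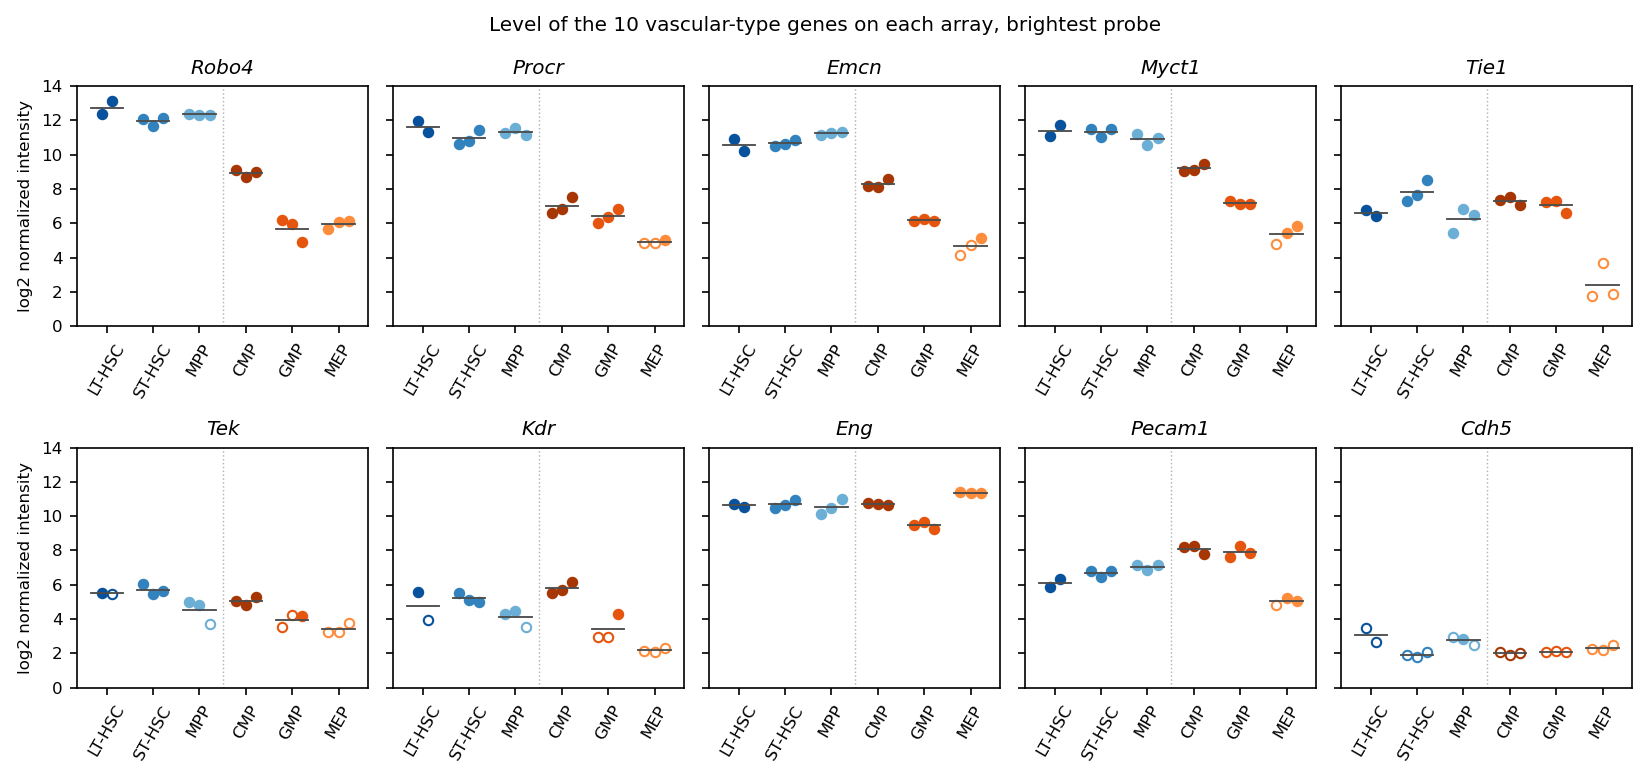
Level of each gene at its brightest probe, as log2 normalized intensity (vertical axis), on each of the 17 arrays grouped by population (horizontal axis). Filled points are arrays on which the probe was well above background, open points are arrays on which it was not, lines are population means, and the dotted line parts HSC subsets from myeloid populations. Robo4, Procr, Emcn and Myct1 drop between MPP and CMP, Eng is highest in MEP, and Cdh5 has 1 filled point.

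The step from MPP to CMP can be read in these values, although the populations come from different sorts. The mean of CMP lay below that of MPP by 4.34 on the log2 scale for Procr, by 3.42 for Robo4, by 2.94 for Emcn and by 1.70 for Myct1. The means of Kdr, Tie1, Pecam1 and Tek went the other way between the same populations, with CMP above MPP by 1.68, 1.05, 1.05 and 0.56. On the slide that held unnumbered MPP and CMP arrays together, Robo4 read 12.30 and 9.01 and Procr read 11.17 and 7.55.

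The label of the list did not hold for all of its members, since 6 of the 10 genes overlapped between the compartments. Among the receptors, Tie1, with its probe at chr4:118144132-118144191, read 6.77 and 6.43 in LT-HSC, 7.30, 7.67 and 8.54 in ST-HSC, 5.45, 6.83 and 6.48 in MPP, 7.36, 7.51 and 7.04 in CMP, 7.24, 7.32 and 6.63 in GMP, and 1.74, 3.67 and 1.86 in MEP. All CMP and GMP values of Tie1 lay within the range of the HSC subsets, and it was not well above background on any MEP array. The mean difference between compartments was 1.301.

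Tek, the angiopoietin receptor, was dim. At its brighter probe, chr4:94408487-94408546, it read 5.52 and 5.47 in LT-HSC, 6.05, 5.46 and 5.65 in ST-HSC, 4.98, 4.84 and 3.71 in MPP, 5.04, 4.85 and 5.30 in CMP, 3.54, 4.23 and 4.15 in GMP, and 3.28, 3.25 and 3.79 in MEP. The probe was well above background on 10 of 17 arrays, among them all ST-HSC and CMP arrays and no MEP array. The sequence record given for this probe is not among the RefSeq transcripts of Tek, whereas that of the other probe is. Over the 17 arrays their means were close, at 4.65 and 4.63. The difference between compartments was 1.08 at this probe and 0.38 at the other. The other Tek probe lies 132374 bases away on build mm9, was well above background on 10 of 17 arrays as well, and followed the first with a Pearson r of 0.59 over the 17 arrays, which share their RNA between the probes. It differed most on the unnumbered MEP array, where it read 6.57 against 3.76 and 3.68 on the other MEP arrays.

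Kdr, which the VEGF-A signal passes through, had its highest mean in CMP, whose arrays overlapped those of ST-HSC and LT-HSC. Its brighter probe, at chr5:76329309-76329368, read 5.57 and 3.93 in LT-HSC, 5.54, 5.14 and 5.001 in ST-HSC, 4.32, 4.45 and 3.55 in MPP, 5.51, 5.70 and 6.16 in CMP, 2.98, 2.97 and 4.29 in GMP, and 2.13, 2.10 and 2.30 in MEP. All ST-HSC and CMP arrays and no MEP array were well above background. This probe was printed 10 times on each array, and the median SD of its spots within an array was 0.21, which is the spread of printing and not that of replicates. The other Kdr probe, also printed 10 times, was well above background on 0 of 17 arrays.

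Eng was strong in every population and showed no separation of the compartments. Its probe, at chr2:32537310-32537369, read 10.72 and 10.56 in LT-HSC, 10.50, 10.66 and 10.95 in ST-HSC, 10.15, 10.50 and 11.003 in MPP, 10.78, 10.71 and 10.65 in CMP, 9.51, 9.64 and 9.26 in GMP, and 11.41, 11.36 and 11.32 in MEP. MEP was highest and GMP lowest, each apart from the other 5 populations, and the mean difference between compartments was 0.11.

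Pecam1, the CD31 adhesion molecule, ran against the label, with CMP and GMP above the HSC subsets. Its brighter probe read 5.89 and 6.34 in LT-HSC, 6.78, 6.46 and 6.80 in ST-HSC, 7.13, 6.84 and 7.17 in MPP, 8.20, 8.28 and 7.80 in CMP, 7.65, 8.24 and 7.86 in GMP, and 4.83, 5.23 and 5.07 in MEP. Every CMP and GMP array lay above every array of HSC subsets, and every MEP array lay below them. The sequence of this probe is shown because its 60 letters span 1854 bases of the genome, at chr11:106542389-106544242 of build mm9 on the minus strand, so that it reads spliced RNA.
Pecam1 probe: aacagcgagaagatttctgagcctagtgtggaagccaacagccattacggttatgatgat

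The other Pecam1 probe lies in 1 block, starts 669 bases away, falls within the span of the first, and was well above background on 0 of 17 arrays. Capitals are absent from the printed probe since no motif was searched in it. Over its 10 spots per array the brighter probe had a median SD of 0.09.

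Cdh5, the cadherin of endothelial junctions, was at background. Of its 2 probes, 1 was well above background on 1 of 17 arrays, an MPP array, and the other on 0 of 17. No Cdh5 level can be given from these arrays beyond that.

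**Figure D2:**
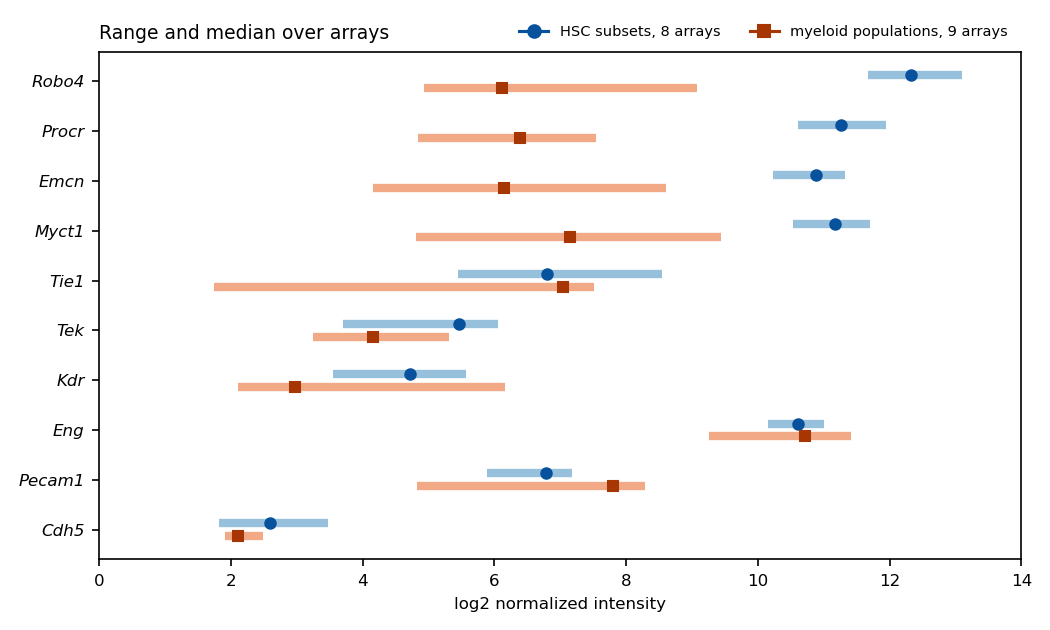
Range (bars) and median (points) of each gene's log2 normalized intensity over the 8 arrays of HSC subsets (circles) and the 9 myeloid arrays (squares), at the brightest probe. The bars are apart for Robo4, Procr, Emcn and Myct1 and overlap for the other 6 genes.

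Over the brightest probes of the 10 genes, the median difference between HSC subsets and myeloid populations was 1.19. The 10 differences ran from 5.49 for Robo4 to -0.40 for Pecam1. With the array background corrected by normexp it was 0.29, with the log2 table of the authors 0.48, and with scaling to the 75th percentile 1.62.

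Whether RNA of vessel cells moved with these levels was read from 14 genes known from endothelium and not from blood stem cells. The count of these genes well above background on all arrays of a population was 6 in both LT-HSC and ST-HSC, 7 in MPP, 3 in both CMP and GMP, and 2 in MEP. The summed intensity ranged from 1051 to 1090 in LT-HSC, 650 to 734 in ST-HSC, 452 to 471 in MPP, 373 to 406 in CMP, 279 to 332 in GMP and 824 to 1036 in MEP. Sele was well above background on 0 arrays, Lyve1 and Flt4 on 1 each, Mmrn2 on 2, Sox17 and Nos3 on 4, Sox18 on 5 and Cldn5 on 6. Plvap and Stab2 were so on 17, and Plvap was highest in MEP with a mean of 9.38. Tm4sf1, Fabp4 and Rasip1 passed the background mark on every one of the 8 arrays from HSC subsets. Their means were 7.68, 7.32 and 6.91 in LT-HSC and 3.17, 4.67 and 4.14 in MEP. Tm4sf1 and Fabp4 had lower means in every myeloid population than in every HSC subset. Rasip1 did not follow the compartments, with means of 4.97 in ST-HSC and 5.28 in MPP against 5.32 in CMP and 5.55 in GMP. The means of Sox17 and Nos3, both dim, were higher in MEP than in every HSC subset. Cdh5, a defining endothelial gene, was at background as given above. The part of these transcripts in the levels of the members was not tested.

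Within the HSC subsets, the comparison asked whether the genes change from LT-HSC to ST-HSC and MPP. Few differences passed the test. In LT-HSC against ST-HSC, 1 of the 14 probes was called at an adjusted p under 0.05 in limma (background over all probes 3.34%), and in ST-HSC against MPP also 1 (background 2.02%). In both cases the probe was the Cdh5 probe, which was not well above background on the LT-HSC and ST-HSC arrays, so no fold is given. In LT-HSC against MPP 1 probe was called (background 7.26%), that of Pecam1. Tie1 had lower values in LT-HSC than in ST-HSC with no overlap of the arrays, and its difference of -1.23 (95% interval -2.44 to -0.03) did not pass (limma adjusted p = 0.28). With the authors' table Tie1 passed there (-1.20, limma adjusted p = 0.036) and the Cdh5 probe did not.

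Pecam1 was lower in LT-HSC than in MPP by -0.93 ± 0.23 (SE, limma adjusted p = 0.030, 2 and 3 arrays), a 1.91-fold difference. It did not pass with scaling to the 75th percentile (adjusted p = 0.13), with slide as a random block (0.072) or when the LT-HSC array labelled as a pool was left out (0.12), nor without the MPP arrays numbered 2 (0.082) or unnumbered (0.070). With normexp it passed at -0.46 (0.049). For Pecam1, LT-HSC minus ST-HSC was -0.57, with ST-HSC higher, a 95% interval of -1.06 to -0.07 and an adjusted p of 0.22 in limma.

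None of the 4 genes that parted the compartments was called inside the HSC subsets, although the calls for Robo4 and Emcn depended on the processing. Robo4 differed by 0.77 between LT-HSC and ST-HSC (95% interval 0.06 to 1.49, limma adjusted p = 0.25) and by -0.38 between ST-HSC and MPP (-1.02 to 0.25, adjusted p = 0.94). For Procr the corresponding differences were 0.68 (-0.04 to 1.40) and -0.38 (-1.03 to 0.26). Emcn differed by -0.10 (-0.68 to 0.49) and -0.58 (-1.10 to -0.05), and Myct1 by 0.07 (-0.58 to 0.71) and 0.44 (-0.14 to 1.01). Between LT-HSC and MPP, Emcn differed by -0.67 (-1.26 to -0.08, limma adjusted p = 0.17) with no overlap of the arrays. It passed with normexp (-0.71, 0.016), with the authors' table (-0.75, 0.023) and when the LT-HSC pool array was left out (-1.02, 0.049), and was -0.32 (0.84) when the unnumbered LT-HSC array was left out. With normexp, Robo4 also passed in LT-HSC against ST-HSC (0.84, limma adjusted p = 0.032) and Emcn in ST-HSC against MPP (-0.59, 0.044). Several of these intervals reach past a difference of 1, a doubling, so they do not show equal levels.

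Tek, Tie1 and Kdr, all receptor tyrosine kinases, had higher means in ST-HSC than in MPP, with no overlap of the arrays. The differences were 1.21 for Tek (95% interval 0.54 to 1.89, limma adjusted p = 0.080), 1.59 for Tie1 (0.51 to 2.66, 0.19) and 1.12 for Kdr (0.19 to 2.04, 0.38). None passed the adjusted threshold. With the replicate block within compartments, which takes the unnumbered arrays as sharing a label, Tek (limma adjusted p = 0.037) and Kdr (0.040) passed, and Tek also passed with scanning run (0.019) and slide (0.046) in the fit. With the replicate block over all arrays none of the 3 passed (limma adjusted p = 0.13 for Tek, 0.26 for Tie1 and 0.20 for Kdr). With normexp Tek (0.31, limma adjusted p = 0.045) and Tie1 (0.91, 0.030) passed, as they did with the authors' table (0.57, 0.034 and 1.24, 0.014), whereas Kdr did not with either (0.40 and 0.28). Megakaryocyte transcripts moved with these 3 receptors: the summed intensity of 7 megakaryocyte genes was 31844 to 34928 in ST-HSC, 2956 to 4001 in MPP and 11792 to 14388 in LT-HSC, with Pf4 at means of 14.68, 9.84 and 12.69. The sum of Mpo, Ela2, Prtn3 and Csf1r also did, at 262487 to 443097 in ST-HSC, 60910 to 170957 in MPP and 58963 to 222792 in LT-HSC. The part of these transcripts in the differences was not tested.

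Among the myeloid populations, the comparison asked which progenitor kept the genes. CMP was highest for most of them. In CMP against GMP, 6 of the 14 probes were called, all with CMP higher (background 4.77%, and 2.93% for CMP higher). In CMP against MEP 9 were called (background 16.7%), 8 with CMP higher (background 9.43%) and Eng with MEP higher (background 7.24%). In GMP against MEP 6 were called (background 17.4%), 5 with GMP higher (background 9.56%) and Eng with MEP higher (background 7.81%). The median over the brightest probes was 1.17 for CMP minus GMP, 3.01 for CMP minus MEP and 1.36 for GMP minus MEP, against -0.04, -0.10 and -0.07 over all probes.

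Robo4 fell by the largest step from CMP to GMP among these genes, with CMP higher by 3.24 ± 0.30 (SE, 9.43-fold, limma adjusted p = 3.88e-05, 3 arrays each). It was higher in CMP than in MEP by 2.98 ± 0.30 (7.88-fold). With normexp background correction both differences passed and were smaller, at 1.86 and 1.75. Between GMP and MEP the difference was -0.26 (95% interval -0.90 to 0.38, limma adjusted p = 0.71). GMP and MEP arrays overlapped, and all of them were well above background.

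Emcn and Myct1 fell in 2 steps. Emcn was higher in CMP than in GMP by 2.11 ± 0.24 (SE, 4.32-fold, limma adjusted p = 0.00022) and higher in GMP than in MEP by 1.503 ± 0.24 (2.83-fold, 0.00053). Myct1 was higher in CMP than in GMP by 2.01 ± 0.27 (SE, 4.02-fold, limma adjusted p = 0.00064) and higher in GMP than in MEP by 1.85 ± 0.27 (3.60-fold, 0.00020). The gap from CMP to MEP was thereby 12.2-fold for Emcn and 14.5-fold for Myct1, with 1 and 2 of the 3 MEP arrays well above background. With the dim MEP arrays set to the lowest signal well above background, the gap of Emcn was 10.7-fold. With normexp all of these differences passed in limma and were smaller: for Emcn 1.24 from CMP to GMP, 0.49 from GMP to MEP and 1.73 from CMP to MEP, and for Myct1 1.37, 0.74 and 2.11.

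Procr, Pecam1 and Tie1 were not called between CMP and GMP and were higher in both than in MEP. Procr was 1.49 higher in GMP than in MEP (limma adjusted p = 0.0027), and its 0.58 between CMP and GMP did not pass (95% interval -0.07 to 1.22). The GMP against MEP call for Procr was lost with normexp background correction (0.61, adjusted p = 0.072). Pecam1 was higher than in MEP by 3.05 in CMP (8.28-fold, limma adjusted p = 5.08e-07) and by 2.87 in GMP (7.33-fold, 5.1e-07), and the CMP to GMP difference was 0.18 (-0.27 to 0.62). Tie1 was at least 5.99-fold higher in CMP than in MEP (limma adjusted p = 1.3e-05) and at least 5.07-fold higher in GMP than in MEP (1.53e-05), given as bounds because no MEP array was well above background. These bounds hold only for the normalized intensities used here. With the authors' table Tie1 was higher than in MEP by 2.13 in CMP and 1.92 in GMP on the log2 scale, both below the bounds. With normexp Tie1 was higher by 1.35 and 1.21 and Pecam1 by 1.49 and 1.37, and all 4 differences with normexp passed.

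Kdr was higher in CMP than in GMP by 2.38 ± 0.43 (SE, 5.21-fold, limma adjusted p = 0.0053), where 1 of 3 GMP arrays was well above background. With the other GMP arrays set to the lowest signal well above background on each, the difference was 1.41 (2.66-fold). Between GMP and MEP, Kdr differed by 1.24 (limma adjusted p = 0.068), which passed with the replicate block within compartments (0.0054) and in 6 other settings, but MEP had no array and GMP 1 array well above background, so no fold is given. It was at least 2.10-fold higher in CMP than in MEP (adjusted p = 4.72e-05). Tek was at least 1.27-fold higher in CMP than in MEP at its brighter probe (limma adjusted p = 0.0023) and at least 2.77-fold higher in CMP than in GMP at the other (0.0497). The call at the other probe was kept in 6 of 26 settings and lost in 20, among them normexp (0.51, limma adjusted p = 0.16), the authors' table (0.94, 0.087) and the replicate block within compartments (0.095). With normexp the differences at the brighter probes passed and were smaller, at 0.50 for Kdr from CMP to GMP, 0.71 for Kdr from CMP to MEP and 0.28 for Tek from CMP to MEP, the last pair below the bounds given. At the brighter probe the CMP to GMP difference of 1.09 had an adjusted p of 0.074, and it passed with the replicate block within compartments (0.033), with scanning run (0.018) and with slide as a random block (0.024). The other Tek probe, whose record is a RefSeq transcript of Tek, had a limma adjusted p of 0.40 for CMP against MEP. Its unnumbered MEP array stood apart as given above.

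Eng was the member called with MEP higher. GMP minus MEP was -1.89 ± 0.20 (SE, 3.71-fold, limma adjusted p = 1.19e-05), CMP minus GMP was 1.24 ± 0.20 (2.36-fold, 0.0023), and CMP minus MEP was -0.65 ± 0.20 (1.57-fold, 0.038). The last of these did not pass when any 1 CMP or MEP array was left out, with limma adjusted p from 0.071 to 0.10, nor without the MPP array numbered 3 (0.051) or the GMP array numbered 1 (0.050). The arrays of the 3 populations did not overlap in any of the 3 comparisons.

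**Figure D3:**
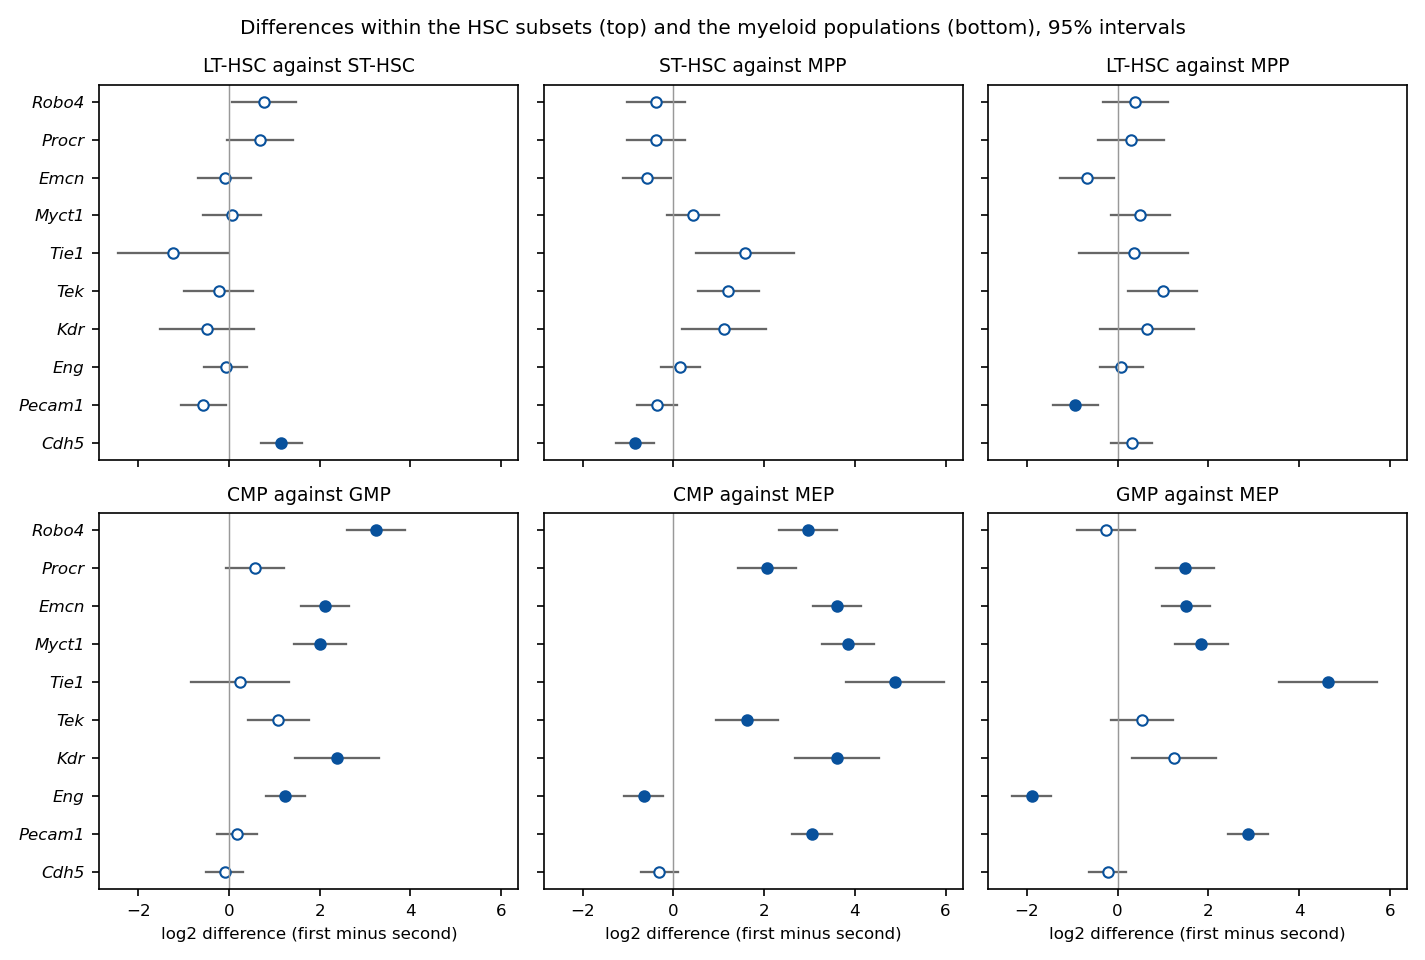
Log2 difference (horizontal axis, first population minus second) of each gene at its brightest probe in the 6 comparisons within compartments. Points are differences, lines are 95% intervals from the limma fit, filled points passed the adjusted threshold, and the points of Tie1, Tek and Kdr against MEP and of Cdh5 are measured differences with a population not well above background. Within HSC subsets 3 points are filled, and in CMP against MEP 8 filled points lie right of 0 and the filled point of Eng lies left of it.

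Transcripts of other lineages moved with the myeloid comparisons as well. The summed intensity of the 7 megakaryocyte genes was 23002 to 55383 in CMP, 5495 to 10351 in GMP and 2198 to 2646 in MEP, the order in which Emcn and Myct1 fell. Of these genes, Gp5 and Gp9 did not follow this order, with means of 7.11 and 8.66 in GMP and of 9.55 and 9.31 in MEP. The summed intensity of 5 mature erythroid genes was 18247 to 58671 in MEP, 1696 to 4650 in CMP and 486 to 1719 in GMP, highest in MEP as Eng was. Their part in these differences was not tested.

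Pathway partners of the members were read from 6 lists, 56 genes on the array, each at its brightest probe. In CMP against MEP 25 of the 56 genes were called (background over gene names 17.8%), 23 with CMP higher (background 10.4%). In GMP against MEP 23 were called (background 18.5%), 18 with GMP higher (background 10.3%), and in CMP against GMP 13 (background 5.49%), 9 with CMP higher (background 3.43%). Within HSC subsets 2 were called in LT-HSC against ST-HSC (background 3.79%), 5 in ST-HSC against MPP (background 2.46%) and 6 in LT-HSC against MPP (background 7.87%). The median over the 56 genes was 1.06 for CMP minus MEP against -0.10 over all gene names.

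Around Tek and Tie1, 3 of 7 partners were called in each myeloid comparison (background over gene names 5.49% in CMP against GMP, 17.8% in CMP against MEP and 18.5% in GMP against MEP). Angpt1, the activating ligand of Tek, had means of 7.93, 8.63 and 7.76 in LT-HSC, ST-HSC and MPP and of 7.50, 6.10 and 4.76 in CMP, GMP and MEP. It was higher in CMP than in MEP by 2.74 ± 0.37 (SE, limma adjusted p = 0.00014). Dok2, an adaptor that binds activated Tek, was 2.53 higher in CMP than in MEP (5.57e-06) and 1.82 higher in CMP than in GMP (0.00050). Grb14, another adaptor, went the other way and was at least 8.94-fold higher in GMP than in CMP (0.0074). Grb7, also an adaptor, was called higher in MEP than in CMP and GMP (limma adjusted p = 0.0015 and 0.0022), with 1 of 3 MEP arrays and no CMP or GMP array well above background. It was also called higher in LT-HSC than in ST-HSC and MPP (0.0025 and 0.0021), with 1 of 2 LT-HSC arrays well above background. Angpt2, Angpt4 and Ptprb were called in no comparison, and they were well above background on 1, 0 and 0 of 17 arrays.

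Around Kdr, 2 of 9 partners were called in CMP against GMP, 2 in CMP against MEP and 5 in GMP against MEP (background 5.49%, 17.8% and 18.5%). Flt1, which binds VEGF-A and signals weakly, was lower in CMP than in GMP, with means of 5.28 and 8.46 (limma adjusted p = 0.041). Nrp2 was also lower in CMP than in GMP, with means of 6.26 and 8.40 (0.012), and higher in LT-HSC than in MPP by 3.14 ± 0.49 (SE, 0.0021). Nrp1 was at least 3.68-fold higher in CMP than in MEP (3.09e-06). Vegfc, the ligand of Flt4 and Kdr, followed the 4 members that parted the compartments, with means of 9.70, 9.13 and 9.28 in the HSC subsets and 7.62, 6.73 and 4.78 in CMP, GMP and MEP. Vegfa was called in no comparison, with means from 8.05 in MEP to 11.22 in MPP.

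Around Robo4, only Robo3 was called among the myeloid populations of the 7 SLIT and ROBO genes, in all 3 comparisons (background 5.49% in CMP against GMP, 17.8% in CMP against MEP and 18.5% in GMP against MEP). Robo3 had means of 8.97, 9.80 and 8.18 in LT-HSC, ST-HSC and MPP and of 9.52, 6.94 and 4.52 in CMP, GMP and MEP, and was higher in CMP than in GMP by 2.58 ± 0.42 (SE, limma adjusted p = 0.0027). Unlike Robo4, its CMP level lay within the range of the HSC subsets. The ligand Slit2 was called in LT-HSC against MPP with LT-HSC higher (0.025), and since 1 of 2 LT-HSC arrays and no MPP array were well above background no fold is given.

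Around Eng, 4 of 7 partners were called in CMP against MEP (background 17.8%). Of these, 3, all receptors, had CMP above MEP (background 10.4%) and 1 had MEP above CMP (background over all probes 7.24%). Tgfbr2, the type II receptor for TGF-β, was 0.88 higher in CMP than in GMP and 1.67 higher in CMP than in MEP (limma adjusted p = 0.0043 and 5.34e-06). Bmpr2 was 1.28 higher in CMP than in MEP (0.0098). Acvrl1 (ALK1), the receptor that endoglin serves, was at least 1.67-fold higher in CMP than in MEP (0.0079). Among the ligands, Tgfb3 was higher in MEP, as Eng was, with means of 6.31 in MEP, 5.05 in CMP (0.018) and 4.99 in GMP (0.012). The BMP9 gene Gdf2 was called in no comparison.

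Around Procr, 4 of 9 partners were called in CMP against MEP, all with CMP higher (background 10.4%), and the genes called in any myeloid comparison included Thbd, F2r and Pros1. Thbd, which turns thrombin towards protein C, had means of 9.12 in CMP, 9.44 in GMP and 5.10 in MEP (4.02 and 4.34 higher than in MEP, limma adjusted p = 3.37e-05 and 1.35e-05). F2r (PAR1) was 3.44 higher in CMP than in GMP (0.00028), with means of 11.89 in CMP, 8.45 in GMP and 9.87 in MEP, and was also higher in MEP than in GMP (0.029). Pros1, the protein S cofactor, was 2.56 higher in CMP and 2.86 higher in GMP than in MEP (0.00035 and 0.00011).

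Around Cdh5 and Pecam1, 11 of 17 junction and adhesion genes were called in CMP against MEP, all with CMP higher (background 17.8%, and 10.4% for CMP higher), and Cd34, a gate of the sort, is among the 11. F11r (JAM-A) fell in steps like Emcn and Myct1, with means of 11.86, 11.50 and 11.23 in the HSC subsets and 8.55, 6.37 and 5.24 in CMP, GMP and MEP. It was 2.17 higher in CMP than in GMP (limma adjusted p = 0.00047). Cd34 was 5.45 higher in CMP than in MEP, but CD34 was a gate of the sort, so this is no finding, and Cd93 was 4.88 higher (4.92e-07). Selp, the P-selectin of endothelium and platelets, was at least 6.61-fold higher in CMP than in MEP (1.32e-05).

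Within the HSC subsets, 4 of the 17 genes of this list were called in ST-HSC against MPP (background 2.46%) and 3 of 17 in LT-HSC against MPP (background 7.87%). Vwf, the von Willebrand factor of endothelium and platelets, was lower in MPP, with a mean of 8.23, than in LT-HSC at 11.78 and ST-HSC at 11.60, differences of 3.55 and 3.37 (limma adjusted p = 2.63e-05 and 5.35e-05). Esam1, an adhesion molecule of endothelium and stem cells, was 2.03 and 1.99 higher in LT-HSC and in ST-HSC than in MPP (0.0015 for both). Egfl7, a secreted vessel factor, ran the other way, with a mean of 13.71 in MPP against 12.15 in LT-HSC and 12.28 in ST-HSC (0.0016 and 0.0024). The megakaryocyte sums given above for ST-HSC and MPP moved with Vwf, and their part was not tested.

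**Figure D4:**
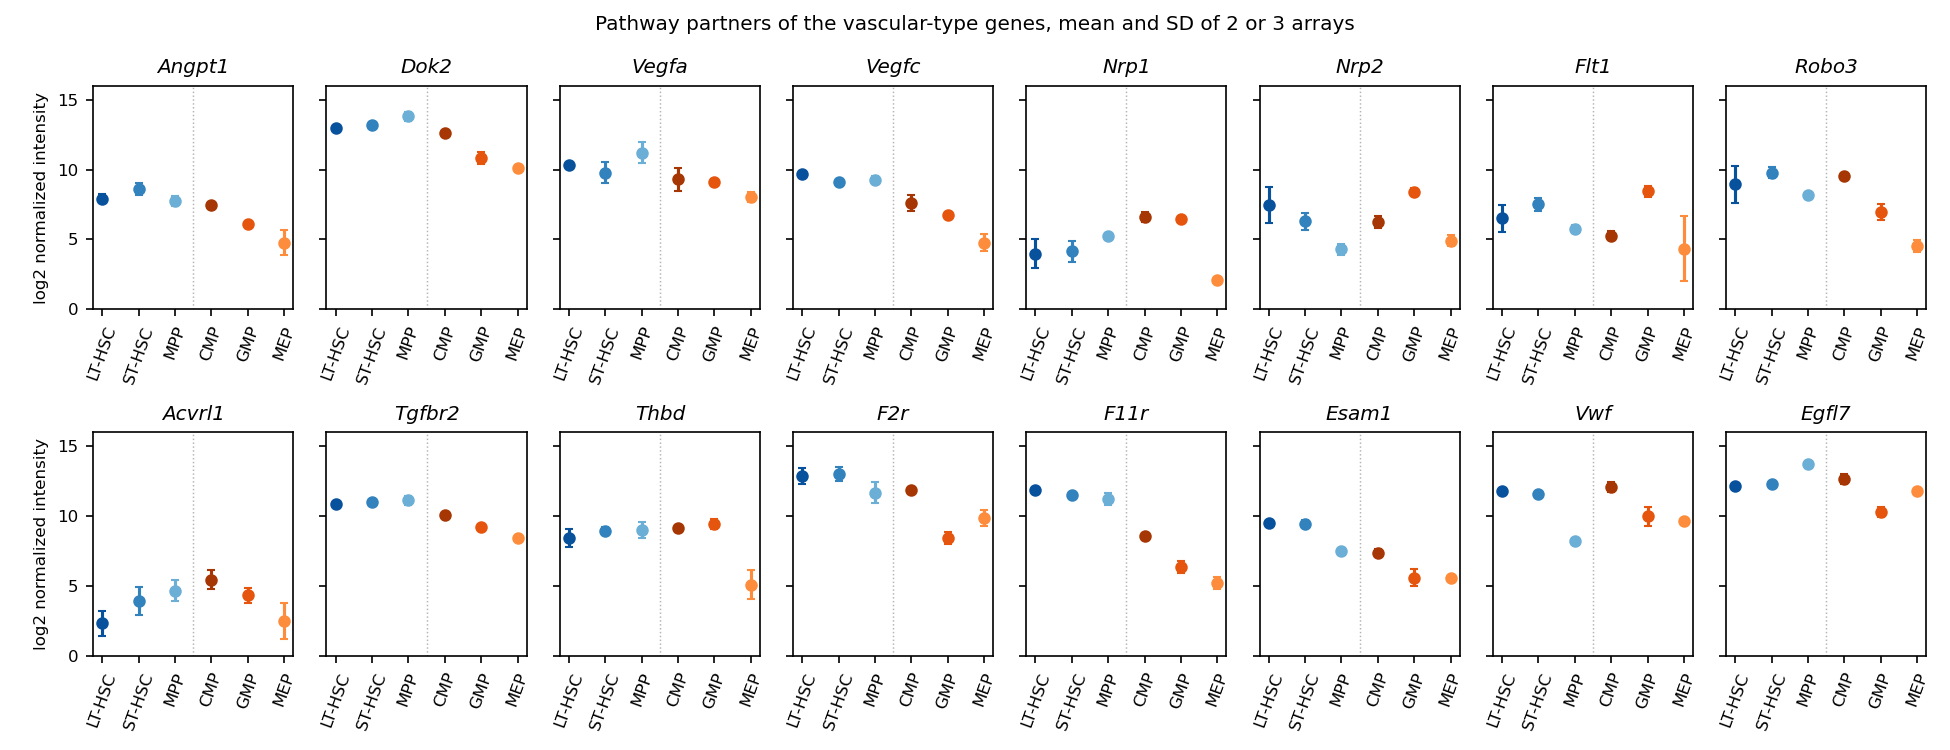
Mean log2 normalized intensity (vertical axis) of 16 pathway partners in the 6 populations (horizontal axis), with bars of 1 SD over 2 LT-HSC arrays and 3 arrays of each other population. Levels fall from CMP to MEP for Angpt1, Dok2, Vegfc, Robo3, Tgfbr2 and F11r, Thbd is low in MEP only, Flt1 and Nrp2 are highest in GMP among the myeloid populations, and Vwf is lowest and Egfl7 highest in MPP.

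The genes whose levels tracked each member most closely over the 17 arrays were found among 15793 gene names by Pearson r, which is a description since all arrays share the division into compartments. For Robo4 they were Hoxa10 (0.989), a homeobox gene of stem and progenitor cells, Pglyrp2 (0.988) and Dusp4 (0.987). For Procr they were Armc3 (0.988), Hlf (0.983) and Prdm16 (0.983), the last pair being transcription factors of stem cells. Vldlr (0.995) and Cnrip1 (0.990) led for Emcn, and Pear1 (0.991), a platelet and endothelial receptor, and Sfxn3 (0.990) for Myct1. For Pecam1 close genes were Anxa2 (0.982) and Ly86 (0.970), for Tie1 Lxn (0.957) and Gmpr (0.947), and for Eng Nefh (0.945), Dmwd (0.935) and Adcy6 (0.920). Tek and Kdr, which were dim, had lower maxima, with Csgalnact1 at 0.908 for Tek and Slc6a3 at 0.912 for Kdr.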

How the data were processed

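RNA of 6 sorted populations was read on 17 arrays. For each array the authors deposited the scanner file, where Agilent Feature Extraction (9.5.3.1 or 10.2.1.3 per the file headers) gave a background-corrected processed intensity per spot, not normalized between arrays, and a quantile-normalized table of log2 values, used as an alternative. Here log2 processed intensities were quantile normalized over all spots. The 1639 control spots and outlier-marked spots were then left out, which left 161 probe values missing, and spots of a probe were averaged. The functions lmFit and eBayes (limma 3.58.1, R 4.3.3) fitted population means to all 17 arrays with 1 shared estimate of spread, and 6 within-compartment contrasts were tested, two-sided, with Benjamini-Hochberg adjustment over 41174 probes at 0.05. Where no array of 1 population was well above background, the fold was given as a lower bound, taken against the lowest well-above signal of each array. The bound holds for these normalized processed intensities only, and not for the authors' table or normexp. Probe coordinates are those of mm9 in the file headers, and placement in exons or untranslated regions was not determined here. The fit was afterwards also run on intensities simulated from the means and spread of these arrays, in which 200 probes had been changed.

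The members, lists and rules were chosen with earlier results of these data known. Text names all 10 members, the called pathway genes (at most 3 per direction, list and contrast), and the 3 gene names most correlated with each member among those well above background on at least 8 arrays. Some of these names are not reported here. Of the pathway genes, Esam was found as Esam1. Alternatives were scaling to the 75th percentile, normexp with offset 50, the authors' table, dim probes left out, 1 probe per gene, scanning run, slide, the replicate block, and omission of both LT-HSC arrays or of each array in turn. In the block, the 6 arrays with no number, 1 per population, were treated as sharing a label. Same-labelled arrays had correlations of deviations of 0.13 to 0.51 over 9 myeloid pairs and of 0.29 to 0.67 over 3 pairs of ST-HSC and MPP, of which the highest was the unnumbered pair. The unnumbered LT-HSC array, in another scanning run, had -0.060 with ST-HSC and 0.11 with MPP, so the labels were not taken to pair LT-HSC with them. The main fit used no labels for any population. The block within compartments took the labels as pairing ST-HSC with MPP. The number of arrays limits the precision. The labels do not say that replicates came from separate sorts, so p-values measure only the spread between these samples.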

Additional observations from a re-analysis of the deposited data

How the results depend on the processing

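The dimmest array, few arrays per population and dim probes of Tek, Kdr and Cdh5 set the limits. Of 342 settings of the counts and of the median, 281 stayed within 1.5 times the main count or within the spread. For single genes, Kdr turned direction: its difference between HSC subsets and myeloid populations was -0.00995 with scanning run in the fit, and the cause was not tested. Several differences that were not called also changed sign over the settings. Among them were Kdr (-1.30 to 0.35) and Emcn (-0.58 to 0.25) in LT-HSC against ST-HSC, and Procr (-0.23 to 0.63) in LT-HSC against MPP. The Cdh5 call in ST-HSC against MPP was lost in 16 of 26 settings and that in LT-HSC against ST-HSC in 3 settings.

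The median difference over the brightest probes was 1.62 with scaling to the 75th percentile, 0.29 with normexp and 0.48 with the authors' table, and 1.05 to 1.45 under the other settings that kept all arrays. Scaling to the 75th percentile moved the median of all probes to -0.49 for CMP minus MEP, -0.43 for GMP minus MEP and 0.27 for LT-HSC minus MPP.

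In LT-HSC against ST-HSC, the count of member probes was 0 with dim probes left out (2.78% of all probes called) and with the replicate block (17%). The count of pathway genes was 1 with the 75th percentile and with slide, 4 with normexp and with scanning run, and 9 with the replicate block. These stand beside 1.9%, 1.51%, 3.37%, 9.64% and 16.4% of all gene names called in these settings. In ST-HSC against MPP, members numbered 0 with the 75th percentile and with dim probes left out, beside 1.53% and 3.01% of all probes called. They numbered 2 with the authors' table (2.59%), scanning run (3.66%) and slide (3.15%). The count was 3 with normexp (2.6%) and with the block within compartments (5.37%), which was added after the data had been seen. Pathway genes there numbered 8 with the authors' table and with slide, 9 with the replicate block and 11 with the block within compartments. In LT-HSC against MPP, members numbered 0 with the 75th percentile (17.3% of all probes called) and with slide (2.81%), 2 with the authors' table (6.39%) and 3 with normexp (6.35%). Pathway genes there numbered 10 with the 75th percentile and with normexp, 14 with scanning run and 16 with the replicate block. Of the 56, these stand beside 17.8% of all gene names called with the 75th percentile, 7.27% with normexp, 16.1% with scanning run and 20.7% with the replicate block. In ST-HSC against MPP the share was 3.15% with the authors' table, 3.77% with slide, 3.59% with the replicate block and 6.11% with the block within compartments. The block within compartments called Tek (limma adjusted p = 0.037) and Kdr (0.040) in ST-HSC against MPP, a fit that leaves out both LT-HSC arrays and takes the unnumbered arrays as sharing a label. The replicate block over all arrays ended the calls of Pecam1 in LT-HSC against MPP (0.066) and of Eng in CMP against MEP (0.053; within compartments 0.0024), and called Emcn in LT-HSC against MPP (-1.15, 0.018). The causes were not tested.

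With each array left out in turn, members called numbered 0 to 2 in ST-HSC against MPP, 5 to 6 in CMP against GMP, 8 to 9 in CMP against MEP and 6 to 7 in GMP against MEP. The shares of all probes called were 1.19% to 2.32%, 2.72% to 5.35%, 12.5% to 18.1% and 14.4% to 18.7%. With both LT-HSC arrays kept, members numbered 1 in LT-HSC against ST-HSC and 0 to 2 in LT-HSC against MPP, beside 1.85% to 3.65% and 3.41% to 7.89% of probes. Pathway genes numbered 3 to 6, 9 to 14, 22 to 28 and 17 to 25 in the comparisons without LT-HSC, in the same order. The shares of all gene names were 1.46% to 2.75%, 3.26% to 6.12%, 13.7% to 19.2% and 15.5% to 19.7%. The median difference was 1.12 to 1.28.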
